A study of Mus musculus with 6 samples.

Results

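The Toll-like receptors, the NLRP proteins and the numbered C-type lectins are receptors with which cells of innate immunity sense microbes, damaged cells and glycans. They were described here in single-cell RNA-seq of pancreatic tumours from 6 C57BL/6J mice. Members were all genes whose symbol starts with Tlr, Nlrp or Clec followed by a digit, without Clec3b and Clec9a, which gave 62 of the 29781 genes listed in any library: 12 Tlr, 19 Nlrp and 31 Clec genes. Tumours of KPC cells, a mouse line of pancreatic ductal cancer, had been placed in the pancreas of mice labelled wild-type, and the mice were given either IgG (IgG 1, 2 and 3) or the #44 antibody against mouse VSIG4 (anti-VSIG4 1, 2 and 3), a complement receptor of macrophages. The tumours were collected on day 11, with 1 library per mouse. The labels used here give no dose and no schedule of injections.

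Toll-like receptors recognise lipids, flagellin and nucleic acids of microbes, at the cell surface or in endosomes, and signal through the adaptors MyD88 and TRIF to NF-kB and interferon regulatory factors. NLRP proteins sit in the cytosol, and several of them, NLRP3 and NLRP1 among them, assemble inflammasomes that let caspase-1 process interleukin-1 beta. C-type lectins of myeloid cells bind sugars or dead-cell ligands: Dectin-1 (Clec7a), Dectin-2 (Clec4n), MCL (Clec4d) and Mincle (Clec4e) activate the kinase Syk, while DCIR1 (Clec4a2) and Clec12a carry inhibitory motifs. Pancreatic tumours are rich in neutrophils and macrophages, the cells best known for these receptors, and other Clec genes are known from vessels and stroma.

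The libraries held 26606234 to 47221033 UMIs (counted molecules), and 47603 of 47794 barcodes were kept. Pairs of libraries shared 1018 to 1827 barcode names, which are running numbers and not sequences. Cells were clustered without the 62 genes, and clusters were named from fixed markers; a class name below means cells like that type and no more. 10 classes had at least 20 cells in every library: neutrophils (13597 cells), monocyte/macrophages (11411), T (6058), NK (1261), cDC2, a conventional dendritic cell type (1293), migratory DC (604), plasma cells (303), endothelial cells (453), fibroblasts (899) and tumour/epithelial cells (2657). IgG 2, IgG 3 and anti-VSIG4 3 held 5.17% to 43.0% nucleus-like cells, with much of their RNA in long genes, against 0.170% to 0.405% in the other libraries, and these cells were left out of the named classes. Both kinds of library occur in each treatment group, but unevenly. The libraries with many such cells were IgG 2 (16.0%) and IgG 3 (43.0%) in the IgG group and anti-VSIG4 3 (5.17%) in the anti-VSIG4 group. Library kind and treatment are thus not fully separate. All levels below are CPM, the UMI counts of a gene summed over a class and scaled to one common total in every library, which removes depth but not gene length, so levels are compared between cells and not between genes.

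Of the 62 sensors, 31 reached a mean of 5 CPM in at least 1 class and are called measurable: 9 of 12 Tlr, 4 of 19 Nlrp and 18 of 31 Clec genes. Neutrophils had the highest mean for 10 of them, monocyte/macrophages for 9, cDC2, migratory DC and endothelial cells for 3 each, and T cells, fibroblasts and tumour/epithelial cells for 1 each. The leading class stayed the same for 25 of the 31 in a coarser clustering (Leiden resolution 0.5) and for 26 with B cells and plasmacytoid dendritic cells added as classes. The coarser clustering had no class named cDC2. Its 1 dendritic cluster of this kind (1879 cells, named migratory DC) had leading genes of both classes. The 3 sensors led by cDC2 could therefore not keep their class there. For 23 of the 31, the same class was highest in all 6 libraries. A sensor was called class-restricted when that class was highest in every library with a mean at least 4 times that of the next class, which held for 10: Clec4e, Clec5a, Nlrp12 and Tlr6 in neutrophils, Clec4a1 and Tlr7 in monocyte/macrophages, Clec14a and Clec1a in endothelial cells, Clec11a in fibroblasts and Nlrp4e in tumour/epithelial cells. With a fold of 2 in place of 4 the count was 19, and with a fold of 8 it was 5 (Clec11a, Clec14a, Nlrp12, Nlrp4e and Tlr7). By the share of cells with a UMI, after thinning all cells to an equal depth, it was also 5, with Clec4a3 in place of Clec14a. The other sensors restricted by CPM were not restricted by that share. Classes are clusters of the same cells, so these levels are a description without a test.

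**Figure D1:**
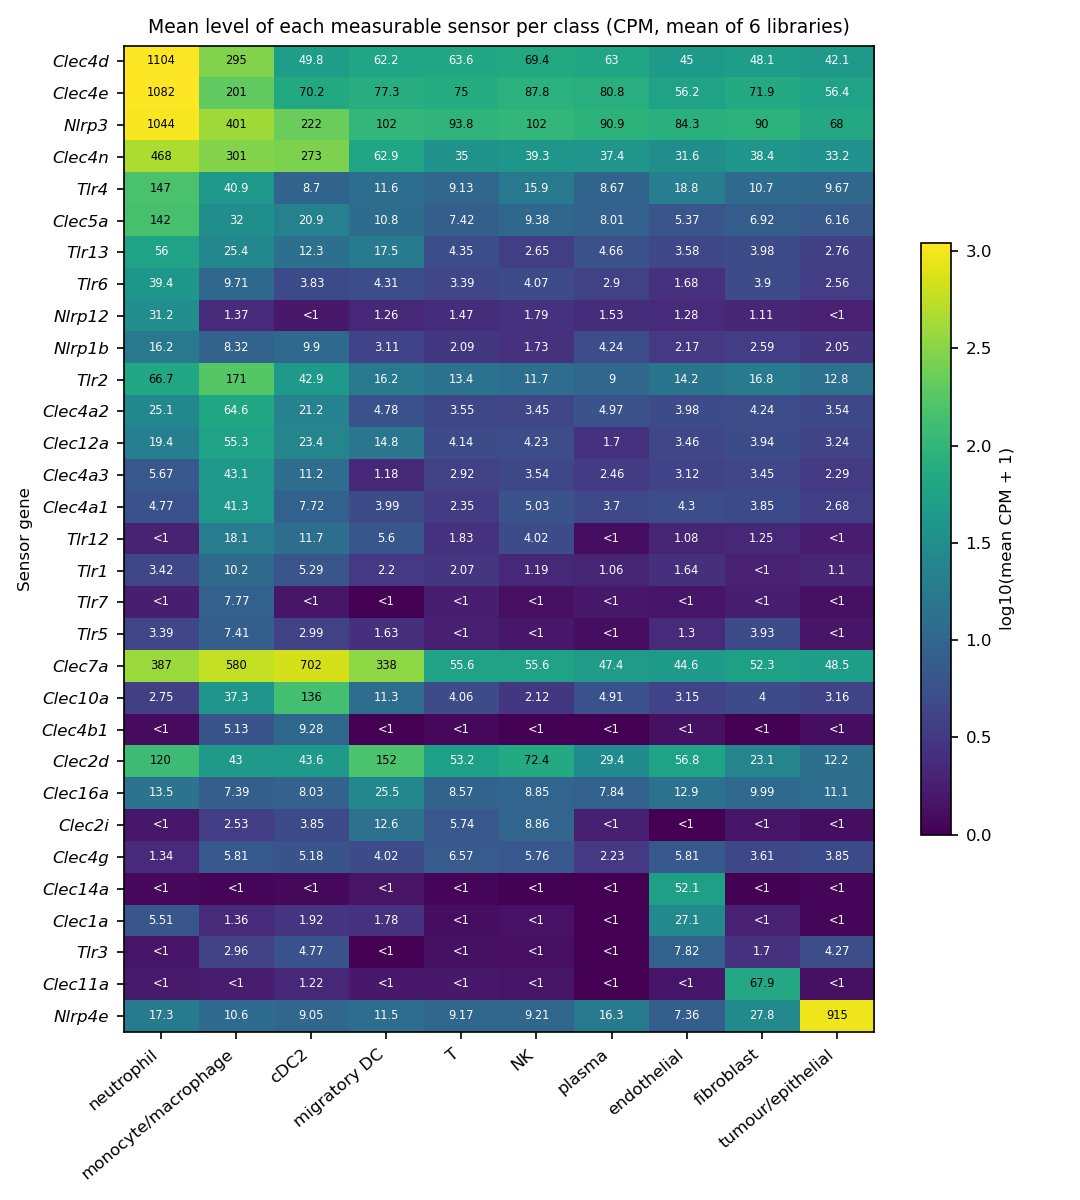
Mean CPM over 6 libraries of each measurable sensor in each class; colour is log10 of the mean plus 1 and each cell prints the mean. Many of the bright cells fall in the neutrophil, monocyte/macrophage and cDC2 columns. Other columns hold some too, such as Clec2d (152 CPM) in migratory DC and Clec4e (87.8 CPM) in NK cells. The Clec4e value in NK cells is not read as expression, for the reason given with the thinned shares. Clec14a (52.1 CPM) leads its row in endothelial cells, Clec11a (67.9 CPM) in fibroblasts and Nlrp4e (915 CPM) in tumour/epithelial cells.

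The other 31 stayed under 5 CPM in every class. Among the Toll-like receptors these were Tlr8 and Tlr9, endosomal receptors of RNA and of DNA, and Tlr11, a profilin receptor of mice. Tlr8 was highest in monocyte/macrophages (3.45 ± 1.21 CPM, SD over 6 libraries as throughout for class levels) and Tlr11 in cDC2 (4.54 ± 1.99 CPM), with Tlr9 at 1.79 ± 0.579 CPM in monocyte/macrophages. Among the NLRP genes, Nlrp6, an epithelial inflammasome gene, was highest in tumour/epithelial cells (2.91 ± 1.74 CPM), and Nlrp10 did not pass 0.665 CPM on average in any of the 10 classes. Clec1b, which encodes CLEC-2, the platelet receptor for podoplanin, was highest in monocyte/macrophages (2.85 ± 0.439 CPM). The remaining 25 were Nlrp1a, Nlrp1c-ps, Nlrp2, Nlrp14, Nlrp5, Nlrp5-ps, Nlrp4a, Nlrp4b, Nlrp4c, Nlrp4f, Nlrp9a, Nlrp9b, Nlrp9c, Clec2e, Clec2f, Clec2g, Clec2h, Clec2l, Clec2m, Clec3a, Clec4a4, Clec4b2, Clec4f, Clec12b and Clec18a.

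Neutrophils carried the 3 activating lectin genes Clec4n, Clec4d and Clec4e, which lie next to each other in this order in the RefSeq GRCm38.p6 gene table, together with Clec5a. Mincle (Clec4e), a receptor for mycobacterial glycolipids and for a ribonucleoprotein of dead cells, measured 1154, 875 and 881 CPM in IgG 1, 2 and 3 and 1373, 1079 and 1131 CPM in anti-VSIG4 1, 2 and 3. Its partner MCL (Clec4d) measured 1221, 839 and 1039 CPM in IgG 1, 2 and 3 and 1387, 1076 and 1064 CPM in anti-VSIG4 1, 2 and 3. Monocyte/macrophages were next for both, with 201 ± 39.6 CPM for Clec4e and 295 ± 49.8 CPM for Clec4d, and the neutrophil range lay above theirs for each gene. Dectin-2 (Clec4n), a receptor for mannans, was less confined: it measured 564, 396 and 343 CPM in IgG 1, 2 and 3 and 524, 558 and 421 CPM in anti-VSIG4 1, 2 and 3 in neutrophils, against 301 ± 104 CPM in monocyte/macrophages and 273 ± 54.7 CPM in cDC2, and the neutrophil and monocyte/macrophage ranges overlapped. Clec5a, which couples to the adaptor DAP12, measured 137, 138 and 143 CPM in IgG 1, 2 and 3 and 171, 142 and 118 CPM in anti-VSIG4 1, 2 and 3 in neutrophils and 32.0 ± 8.15 CPM in monocyte/macrophages, with no overlap. In each of these 4 genes neutrophils were the highest class in all 6 libraries. Within neutrophils, Clec4d and Clec4n were higher in IgG 1, anti-VSIG4 1 and anti-VSIG4 2 than in the other libraries. Those are the libraries with few nucleus-like cells, and Clec4e and Clec5a did not split in this way.

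The stretch of 250 bases before the start of 4 of the neutrophil-carried genes and of the endothelial-restricted Clec14a is shown for comparison of their promoters, from RefSeq (GRCm38.p6), 5′ to 3′ along the gene. Capitals mark matches on either strand to GAGGAA, a core of ETS-type (PU.1) sites, or to TTGCNNAA, of C/EBP-type sites, where N is any base; a match to TGANTCA (AP-1-type) was also searched and occurs in none of the 5. The matches do not overlap each other. The positions are chr6:123261857-123262106 (plus strand) for Clec4d, chr6:123289872-123290121 (minus strand) for Clec4e, chr6:40585806-40586055 (minus strand) for Clec5a, chr7:3249741-3249990 (minus strand) for Nlrp12 and chr12:58269259-58269508 (minus strand) for Clec14a.
Clec4d: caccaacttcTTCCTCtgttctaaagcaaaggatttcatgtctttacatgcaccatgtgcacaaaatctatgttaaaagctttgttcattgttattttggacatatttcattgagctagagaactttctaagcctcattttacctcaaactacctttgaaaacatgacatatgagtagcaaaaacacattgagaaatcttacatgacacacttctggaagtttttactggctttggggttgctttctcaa
Clec4e: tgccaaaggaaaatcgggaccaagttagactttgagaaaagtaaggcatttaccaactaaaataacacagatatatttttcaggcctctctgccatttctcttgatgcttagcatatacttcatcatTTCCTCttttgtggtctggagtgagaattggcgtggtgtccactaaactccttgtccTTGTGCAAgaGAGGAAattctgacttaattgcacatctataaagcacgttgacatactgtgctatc
Clec5a: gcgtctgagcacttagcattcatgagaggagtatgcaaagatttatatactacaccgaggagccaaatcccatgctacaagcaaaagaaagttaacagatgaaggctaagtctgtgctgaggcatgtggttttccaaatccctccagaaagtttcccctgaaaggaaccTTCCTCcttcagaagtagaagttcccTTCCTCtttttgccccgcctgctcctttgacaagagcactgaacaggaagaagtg
Nlrp12: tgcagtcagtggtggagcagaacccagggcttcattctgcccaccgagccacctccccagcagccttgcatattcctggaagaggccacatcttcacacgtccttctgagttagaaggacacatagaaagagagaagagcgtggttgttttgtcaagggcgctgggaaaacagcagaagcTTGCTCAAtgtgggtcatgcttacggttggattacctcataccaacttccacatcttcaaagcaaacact
Clec14a: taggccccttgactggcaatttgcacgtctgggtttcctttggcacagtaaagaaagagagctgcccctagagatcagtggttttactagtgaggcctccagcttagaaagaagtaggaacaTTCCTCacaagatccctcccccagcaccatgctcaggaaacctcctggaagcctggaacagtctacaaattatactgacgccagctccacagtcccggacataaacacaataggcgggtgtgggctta
GAGGAA was found in Clec4d, Clec4e, Clec5a and Clec14a and not in Nlrp12, and TTGCNNAA in Clec4e and Nlrp12. Promoters of 50 of the 62 sensors were in the table, 26 of them measurable. Of the 8 neutrophil-carried sensors with an entry, 6 held GAGGAA, 4 held TTGCNNAA and 0 held TGANTCA. For the 8 monocyte/macrophage-carried sensors the numbers were 4, 1 and 1. Over all genes in the table the shares were 25.9%, 10.8% and 7.82%, counting a gene once if any of its promoters held the letters. These are matches of letters, not measured binding.

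Tlr4, Tlr6 and Tlr13 were the Toll-like receptors that neutrophils carried. Tlr4, the receptor for lipopolysaccharide, measured 182, 125 and 114 CPM in IgG 1, 2 and 3 and 196, 149 and 114 CPM in anti-VSIG4 1, 2 and 3. Next were monocyte/macrophages at 40.9 ± 6.37 CPM, and the neutrophil range lay above them. Tlr13, an endosomal receptor for bacterial ribosomal RNA, measured 83.9, 40.9 and 39.7 CPM in IgG 1, 2 and 3 and 72.2, 57.2 and 41.9 CPM in anti-VSIG4 1, 2 and 3, against 25.4 ± 9.03 CPM in monocyte/macrophages. The highest values of Tlr4 and Tlr13 came from IgG 1 and anti-VSIG4 1, and the group ranges overlapped for both. For Tlr4 and Tlr13, and for Tlr6 below, IgG 1, anti-VSIG4 1 and anti-VSIG4 2 lay above the other libraries. These are the libraries with few nucleus-like cells. Tlr6, which pairs with TLR2 for diacylated lipopeptides, measured 55.9, 23.7 and 29.5 CPM in IgG 1, 2 and 3 and 48.6, 45.9 and 32.5 CPM in anti-VSIG4 1, 2 and 3 and 9.71 ± 3.19 CPM in monocyte/macrophages. Its transcript matches that of Tlr1 at 94.9% over 1076 bases in the GENCODE mouse annotation, so reads could be split between them, and its span overlaps Fam114a1.

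Of the inflammasome sensors, Nlrp3, which responds to potassium efflux and crystals, measured 1246, 820.1 and 742 CPM in IgG 1, 2 and 3 and 1357, 1323 and 776 CPM in anti-VSIG4 1, 2 and 3 in neutrophils. Values in monocyte/macrophages (401 ± 108 CPM) and in cDC2 (222 ± 63.2 CPM) were lower, and the neutrophil range did not overlap that of monocyte/macrophages. Within neutrophils the highest Nlrp3 values were those of IgG 1, anti-VSIG4 1 and anti-VSIG4 2, the 3 libraries with few nucleus-like cells, and both treatment groups spanned this gap. Nlrp12, a regulator of NF-kB signalling known from neutrophils, was restricted to them: it measured 36.2, 25.1 and 25.3 CPM in IgG 1, 2 and 3 and 31.1, 41.6 and 27.9 CPM in anti-VSIG4 1, 2 and 3, and no other class exceeded a mean of 1.79 CPM. Nlrp1b, the murine sensor of anthrax lethal factor, measured 24.3, 20.5 and 20.3 CPM in IgG 1, 2 and 3 and 10.7, 11.8 and 9.36 CPM in anti-VSIG4 1, 2 and 3. All 3 IgG values of Nlrp1b lay above all 3 anti-VSIG4 values, and the gene was also seen in cDC2 (9.90 ± 3.41 CPM) and monocyte/macrophages (8.32 ± 2.60 CPM). Its span overlaps the pseudogene Nlrp1c-ps, and its transcript matches that of Nlrp1a at 90.2% over 296 bases, so counts of Nlrp1b are uncertain to that extent.

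After every cell was thinned to 1000 UMIs, 47.8% (47.0 to 48.6) of neutrophils held a UMI of Clec4e, 50.5% (49.7 to 51.4) of Clec4d and 51.1% (50.3 to 52.0) of Nlrp3 (exact 95% binomial intervals, which cover counting error alone). T cells, which should lack these receptors, held 7.26%, 6.45% and 9.03% at a median depth of 3019.5 UMIs before thinning, against 1564 in neutrophils. For Clec4e and Clec4d, shares of 4.47% to 11.2% in the 8 classes other than neutrophils and monocyte/macrophages are near those of T cells and are not read as expression. For Nlrp3 the share was 19.6% in cDC2, above that of T cells. The ratio of Clec4e to the summed neutrophil genes S100a8 and S100a9 was 0.0787 ± 0.0235 in T cells, 0.0904 ± 0.0417 in endothelial cells, 0.111 ± 0.0194 in tumour/epithelial cells and 0.0432 ± 0.00668 in neutrophils. In monocyte/macrophages it was 0.382 ± 0.276, and 18.5% of them held a UMI. Unthinned shares were 59.1% of neutrophils and 21.1% of T cells for Clec4e.

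Neutrophils fell mainly into 3 clusters that differed in their sensors. The cluster led by Retnlg and Cxcr2 (4758 cells) had the highest means of the 3 for Clec4d (1790.5 ± 67.0 CPM), Tlr4 (217 ± 37.3 CPM), Tlr2 (136 ± 30.02 CPM) and Nlrp12 (48.0 ± 12.0 CPM). The cluster with Il23a and Ccl3 among its leading genes (4555 cells) had the highest means for Clec4n (681 ± 80.5 CPM) and Clec5a (199 ± 24.9 CPM). Clec4e was near equal in these 2, at 1392 ± 85.7 CPM and 1440.4 ± 292 CPM, and lower in the cluster led by Igfbp6 (4238 cells, 521 ± 156 CPM). Nlrp3 was also lowest in the Igfbp6 cluster, at 1342 ± 159.7 CPM, 1193 ± 204 CPM and 546 ± 84.0 CPM in the 3 clusters in the order given. These are levels in clusters of the same cells, given without a test.

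Monocyte/macrophages carried Tlr2, the common chain for bacterial lipoproteins, at 196, 186 and 136 CPM in IgG 1, 2 and 3 and 167, 191 and 149.9 CPM in anti-VSIG4 1, 2 and 3. Neutrophils followed at 66.7 ± 19.7 CPM with no overlap, and 15.1% (14.4 to 15.7) of thinned monocyte/macrophages held a UMI against 1.52% of T cells. The 2 treatment groups overlapped in full for Tlr2. Tlr7, the endosomal receptor for single-stranded RNA, was restricted to the class among the 10 classes compared, at 9.62, 9.10 and 6.36 CPM in IgG 1, 2 and 3 and 9.15, 6.69 and 5.67 CPM in anti-VSIG4 1, 2 and 3, with 0.791 ± 0.560 CPM in neutrophils, the next class. It is no longer restricted once the few plasmacytoid dendritic cells are added, which pooled to 93.3 CPM. Tlr12, which binds profilin with TLR11, measured 29.5, 9.86 and 13.7 CPM in IgG 1, 2 and 3 and 26.1, 14.9 and 14.5 CPM in anti-VSIG4 1, 2 and 3, and cDC2 at 11.7 ± 4.14 CPM overlapped it. Tlr1, a partner of TLR2 for triacylated lipopeptides, and Tlr5, the flagellin receptor, were low in the class at 10.2 ± 2.12 CPM and 7.41 ± 1.88 CPM.

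The lectins of the Clec4a group, named for the inhibitory receptor DCIR, were carried by monocyte/macrophages, with Clec4b1 highest in cDC2. Clec4a1 measured 73.5, 33.7 and 30.2 CPM in IgG 1, 2 and 3 and 42.8, 45.2 and 22.7 CPM in anti-VSIG4 1, 2 and 3, against 7.72 ± 5.31 CPM in cDC2. Clec4a2, which encodes DCIR1, measured 80.9, 40.4 and 52.8 CPM in IgG 1, 2 and 3 and 68.4, 91.3 and 53.8 CPM in anti-VSIG4 1, 2 and 3, and Clec4a3 measured 67.9, 30.3 and 34.5 CPM in IgG 1, 2 and 3 and 48.6, 47.8 and 29.1 CPM in anti-VSIG4 1, 2 and 3. Next came neutrophils for Clec4a2 (25.1 ± 3.20 CPM) and cDC2 for Clec4a3 (11.2 ± 6.70 CPM), and both lay below the monocyte/macrophage range. IgG 1 held the highest Clec4a1 and Clec4a3 values and anti-VSIG4 2 the highest Clec4a2 value, and the groups overlapped for all 3 genes. In all 3 genes the libraries with few nucleus-like cells (IgG 1, anti-VSIG4 1 and anti-VSIG4 2) lay above the other libraries. Clec12a, an inhibitory receptor for uric acid crystals, measured 67.3, 45.6 and 51.0 CPM in IgG 1, 2 and 3 and 63.5, 63.7 and 40.4 CPM in anti-VSIG4 1, 2 and 3, with cDC2 at 23.4 ± 6.02 CPM. The transcripts of Clec4a2 and Clec4b1 match at 96.3% over 436 bases, so the counts of these 2 genes are uncertain.

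Sub-clusters of monocyte/macrophages differed in the lectins they carried, and 8 of 13 are plotted. The cells like resident macrophages (901, led by Ccl8, Folr2 and Fcna) had the highest mean of the 8 for Clec10a (98.3 ± 75.9 CPM), Clec4a1 (107 ± 35.1 CPM), Clec4a2 (122 ± 35.4 CPM) and Clec12a (102 ± 24.4 CPM). Clec4a3 stood at 101 ± 30.2 CPM in cells like classical monocytes (659, led by Ly6c2, Hp and Plac8) and at 97.3 ± 23.7 CPM in the resident-like cells. The Arg1 macrophage-like cells with Saa3 and Marco (1843) were highest of the 8 for Clec4d (578 ± 69.5 CPM) and Clec4e (336 ± 70.4 CPM), and the unnamed sub-cluster led by Mmp12, Mgl2 and Ccl17 (1907 cells) for Clec7a (939 ± 126 CPM) and Clec4n (448 ± 91.4 CPM). Mgl2 and Ccl17 are also leading genes of the cDC2 cluster, and whether this sub-cluster holds dendritic cells was not tested. Tlr12 stood at 63.5 ± 26.7 CPM in the C1q macrophage-like cells led by Cxcl9 (1049 cells) and at 1.14 ± 1.49 CPM in the monocyte-like cells. Tlr2 was spread more evenly over the 8, from 142 to 215 CPM. Of the sub-clusters not plotted, an unnamed one of 1539 cells with low UMI counts had 346 CPM of Clec4e and 229 CPM of Tlr2, and one of 473 cells, led by the neutrophil genes S100a9 and S100a8, had 529.7 CPM of Clec4e. Without the latter and 2 small sub-clusters led by genes of other lineages, the class mean of Clec4e was 190.4 CPM, against 201 CPM with them.

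**Figure D2:**
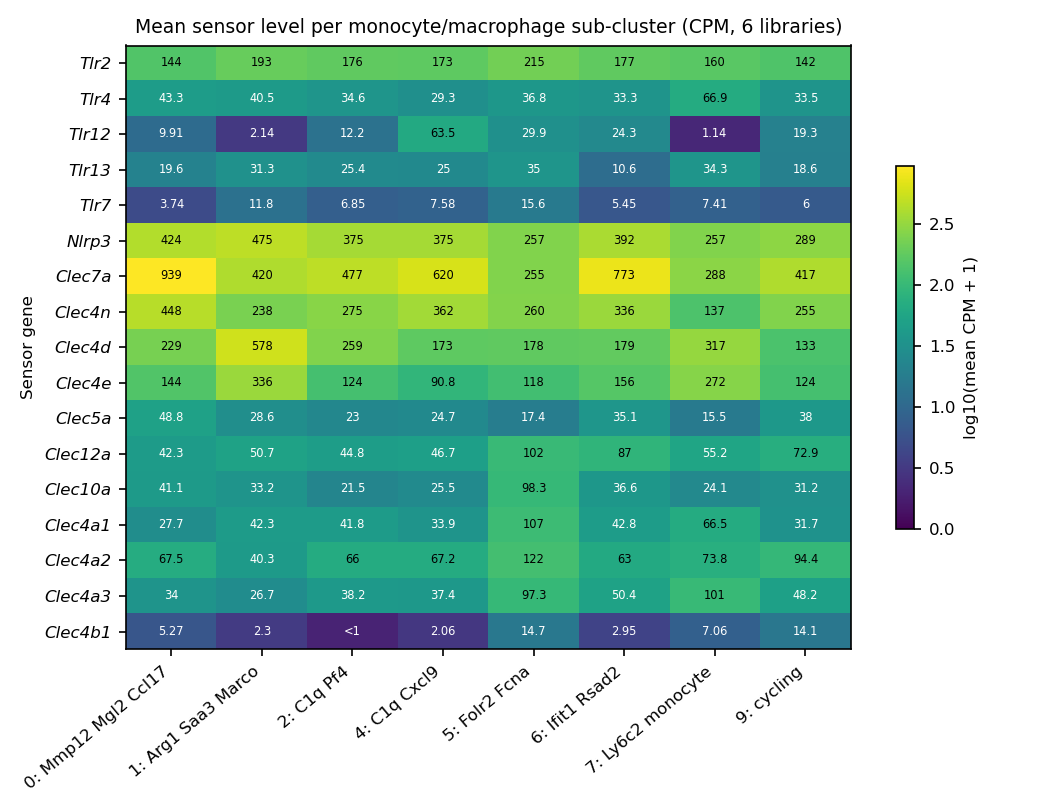
Mean CPM over 6 libraries of 17 sensors in 8 monocyte/macrophage sub-clusters, named by leading genes; colour is log10 of the mean plus 1. Clec10a and Clec4a1 peak in the Folr2 Fcna column, Clec4d and Clec4e in the Arg1 Saa3 Marco column, Clec7a in the Mmp12 Mgl2 Ccl17 column (939 CPM) and Tlr12 in the C1q Cxcl9 column (63.5 CPM).

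Dendritic classes led for 6 sensors, of which Clec10a was the one best separated. Clec10a, a galactose-type lectin, measured 169.9, 148 and 100.4 CPM in IgG 1, 2 and 3 and 135, 160.5 and 102 CPM in anti-VSIG4 1, 2 and 3 in cDC2 and 37.3 ± 20.8 CPM in monocyte/macrophages, and cDC2 was highest in all 6 libraries. Its transcript matches that of Mgl2, itself a cDC2 marker here, at 93.9% over 830 bases, so reads of the 2 genes could have been mixed. Dectin-1 (Clec7a), the receptor for fungal beta-glucan, measured 576, 689.7 and 817 CPM in IgG 1, 2 and 3 and 772, 649.6 and 706 CPM in anti-VSIG4 1, 2 and 3 in cDC2. It was shared widely, with 579.8 ± 83.5 CPM in monocyte/macrophages, 387 ± 60.7 CPM in neutrophils and 338 ± 97.1 CPM in migratory DC, and cDC2 and monocyte/macrophages overlapped. Thinned shares of Clec7a were 41.1% (38.4 to 43.9) in cDC2 and 5.60% in T cells, from median depths of 6548 and 3019.5 UMIs. Clec4b1 measured 20.2, 14.3 and 6.33 CPM in IgG 1, 2 and 3 and 1.90, 4.90 and 8.09 CPM in anti-VSIG4 1, 2 and 3 in cDC2, and the 2 highest values were those of IgG 1 and IgG 2.

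In migratory DC, Clec2d, which encodes the ligand of the NK receptor NKR-P1D, measured 109, 157 and 288 CPM in IgG 1, 2 and 3 and 125, 68.8 and 165 CPM in anti-VSIG4 1, 2 and 3. Neutrophils at 120.5 ± 22.5 CPM and NK cells at 72.4 ± 12.6 CPM lay within or near that range, so no class stood out. Clec2i (12.6 ± 3.93 CPM) and Clec16a, a regulator of mitophagy rather than a surface receptor (25.5 ± 20.3 CPM), were also highest there on average, with wide ranges. Plasmacytoid dendritic cells were too few for the comparisons (177 cells, 9 in IgG 2), but their summed counts held 69 UMIs of Tlr7 and 59 of Tlr12, which is 93.3 and 79.8 CPM over all libraries. With B cells and plasmacytoid cells added to the classes, Tlr12 in place of Tlr7 was among the restricted sensors. Tlr9, known from the same cell type, had 3 UMIs in them.

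Endothelial cells carried Clec14a, a vascular adhesion protein of tumour vessels, at 38.2, 72.5 and 63.4 CPM in IgG 1, 2 and 3 and 53.3, 42.6 and 42.7 CPM in anti-VSIG4 1, 2 and 3. No other class exceeded a mean of 0.436 CPM, and T cells held 2 of its UMIs in all. Clec1a, a lectin for fungal melanin, measured 26.8, 34.9 and 22.2 CPM in IgG 1, 2 and 3 and 23.4, 28.9 and 26.3 CPM in anti-VSIG4 1, 2 and 3 there and 5.51 ± 1.98 CPM in neutrophils. Tlr3, the receptor for double-stranded RNA, was highest on average in endothelial cells with only 30 UMIs, at 7.65, 4.48 and 4.45 CPM in IgG 1, 2 and 3 and 10.7, 0 and 19.7 CPM in anti-VSIG4 1, 2 and 3, and overlapped cDC2 (4.77 ± 2.94 CPM) and tumour/epithelial cells (4.27 ± 1.44 CPM). Fibroblasts carried Clec11a, a secreted growth factor of bone and marrow stroma, at 42.0, 61.0 and 109 CPM in IgG 1, 2 and 3 and 48.8, 51.1 and 95.9 CPM in anti-VSIG4 1, 2 and 3. For Clec11a the next class was cDC2 at 1.22 ± 1.24 CPM, and the highest values were those of IgG 3 and anti-VSIG4 3. Clec4g, a lectin of liver sinusoids, ranged from 1.34 to 6.57 CPM over the 10 classes, and its highest class differed between libraries.

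Counts at Nlrp4e, an NLRP gene known from oocytes, were restricted to tumour/epithelial cells, at 1032, 982 and 717 CPM in IgG 1, 2 and 3 and 842, 1074 and 842 CPM in anti-VSIG4 1, 2 and 3. Fibroblasts were next at 27.8 ± 16.9 CPM, and 48.0% (46.1 to 49.9) of thinned tumour/epithelial cells held a UMI against 0.924% of T cells. A pseudogene of keratin 8, Krt8-ps, lies within the span of Nlrp4e in RefSeq GRCm38.p6 and in the GENCODE annotation, where it sits on the same strand in an intron, and no gene of that symbol is listed in the deposited matrices used here. The Nlrp4e transcript also matches those of Gm4541 (98.7% over 1851 bases), Gm8486 (98.6% over 2175 bases), Gm8728, Gm16443 and Gm8685 (98.2% to 98.5%) and Nlrp4c (92.8% over 3367 bases), so reads could be split among these copies as well. The ratio of Nlrp4e to Krt8 UMIs in tumour/epithelial cells was 0.219, 0.139 and 0.0943 in IgG 1, 2 and 3 and 0.242, 0.235 and 0.149 in anti-VSIG4 1, 2 and 3. It was 0.136 ± 0.0209 in T cells, 0.139 ± 0.0221 in monocyte/macrophages and 0.158 ± 0.0381 in fibroblasts. These class means lie within the tumour range, although Nlrp4e levels differed widely between the classes. Krt8 itself stood at 27.2 to 103 CPM in T cells and at 3477 to 7601 CPM in tumour/epithelial cells. Whether both genes' counts in the other classes are RNA of tumour cells was not tested. Such RNA would have the tumour ratio, so the ratio cannot tell the source of the Nlrp4e counts. Reads of a keratin 8 copy and of Nlrp4e cannot be told apart here, and Nlrp4e values are given as counts at that locus and not as expression of the gene.

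**Figure D3:**
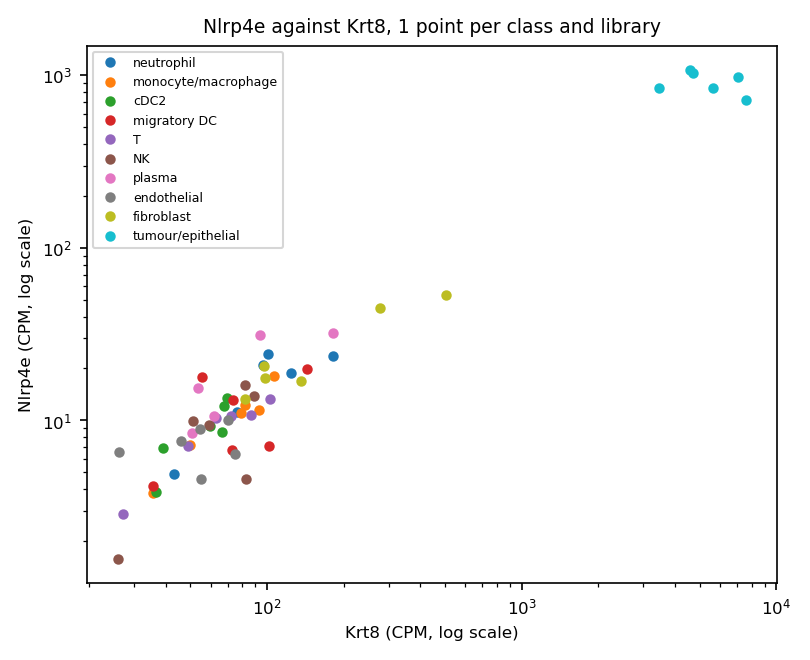
CPM of Nlrp4e (vertical, log scale) against CPM of Krt8 (horizontal, log scale), with 1 point per class and library and colour for the class; 1 plasma cell library with 0 UMIs of Nlrp4e is left out. Between classes Nlrp4e is higher where Krt8 is higher, with the tumour/epithelial cells at the upper end between 717 and 1074 CPM of Nlrp4e. Within the tumour/epithelial cells this does not hold: IgG 3 had the most Krt8 (7601 CPM) and the least Nlrp4e (717 CPM).

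Adaptors and kinases of these receptors were described from fixed lists. Of 34 genes of Toll-like receptor signalling, all measurable by the same floor, neutrophils had the highest mean for 14, migratory DC for 6 and monocyte/macrophages for 5. Myd88, the main adaptor, stood at 110.1 ± 9.24 CPM in neutrophils and 50.2 CPM in cDC2. Unc93b1, the chaperone of endosomal receptors, was highest in monocyte/macrophages (306 ± 63.3 CPM). Of 16 genes of C-type lectin signalling neutrophils led for 8, among them Syk (591 ± 111 CPM, with 207 CPM in monocyte/macrophages) and the signalling chain Fcer1g. Of 24 inflammasome and NOD-like genes, 22 of them measurable, neutrophils led for 9, among them Il1b, the product of the pathway, at 17601 ± 3377 CPM, while Pycard, the inflammasome adaptor ASC, was highest in monocyte/macrophages (297 ± 35.3 CPM).

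The treated and control tumours were compared class by class, to ask whether the antibody went with other sensor levels. In neutrophils, 25 sensors were tested and 0 passed an adjusted p of 0.05 in edgeR's quasi-likelihood test over all 10543 genes, of which 1 passed (0.00948%). DESeq2 called 9 genes (0.0854%) and 0 sensors. Unadjusted p was under 0.05 for 2 of 25 sensors, Nlrp1b and Tlr1, against 5.64% of all genes. Of the 25, 17 were fitted higher and 8 lower with anti-VSIG4, with a median log2 change of 0.21 beside -0.016 over all genes. The 12 monocyte/macrophage markers, each with a UMI in every neutrophil library, summed to 1250.0 to 1840.4 CPM in the IgG libraries and 2006 to 2902 CPM in the anti-VSIG4 libraries in neutrophils, with no overlap, and their part in the sensor values was not tested. In simulated neutrophil counts of 3 against 3 libraries the test found 24.4% of 86 genes changed 2-fold and 86.7% of 105 changed 4-fold. It also called 4 unchanged genes, with 10543 genes in the fit. Where so many genes change, the adjusted threshold is easier to pass than in the real fit with 1 call. The shares found may thus be too high for the real data.

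Nlrp1b had the smallest p in neutrophils among sensors of 5 CPM or more and did not pass. Its means were 21.7 ± 2.27 CPM in the IgG group and 10.6 ± 1.23 CPM in the anti-VSIG4 group, a log2 change of -0.92 ± 0.217 (standard error; edgeR adjusted p = 0.712). It was the 1 sensor of 25 whose groups did not overlap, where 12.3% of all neutrophil genes had groups apart, and over 16 alternatives its log2 change stayed between -1.06 and -0.80. Nlrp1b was also lower in cDC2 (12.7, 13.3 and 10.9 CPM in IgG 1, 2 and 3 and 9.51, 3.81 and 9.25 CPM in anti-VSIG4 1, 2 and 3, log2 change -0.66 ± 0.400, edgeR adjusted p = 0.995), with groups that did not overlap, but in monocyte/macrophages the change was -0.19 ± 0.271 (edgeR adjusted p = 0.998). The others named for neutrophils by the same rule, all with overlapping groups, were Clec4e (0.42 ± 0.217), Clec4a3 (0.71 ± 0.459), Nlrp3 (0.40 ± 0.285) and Clec4d (0.31 ± 0.226), with edgeR adjusted p from 0.853 to 0.875.

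**Figure D4:**
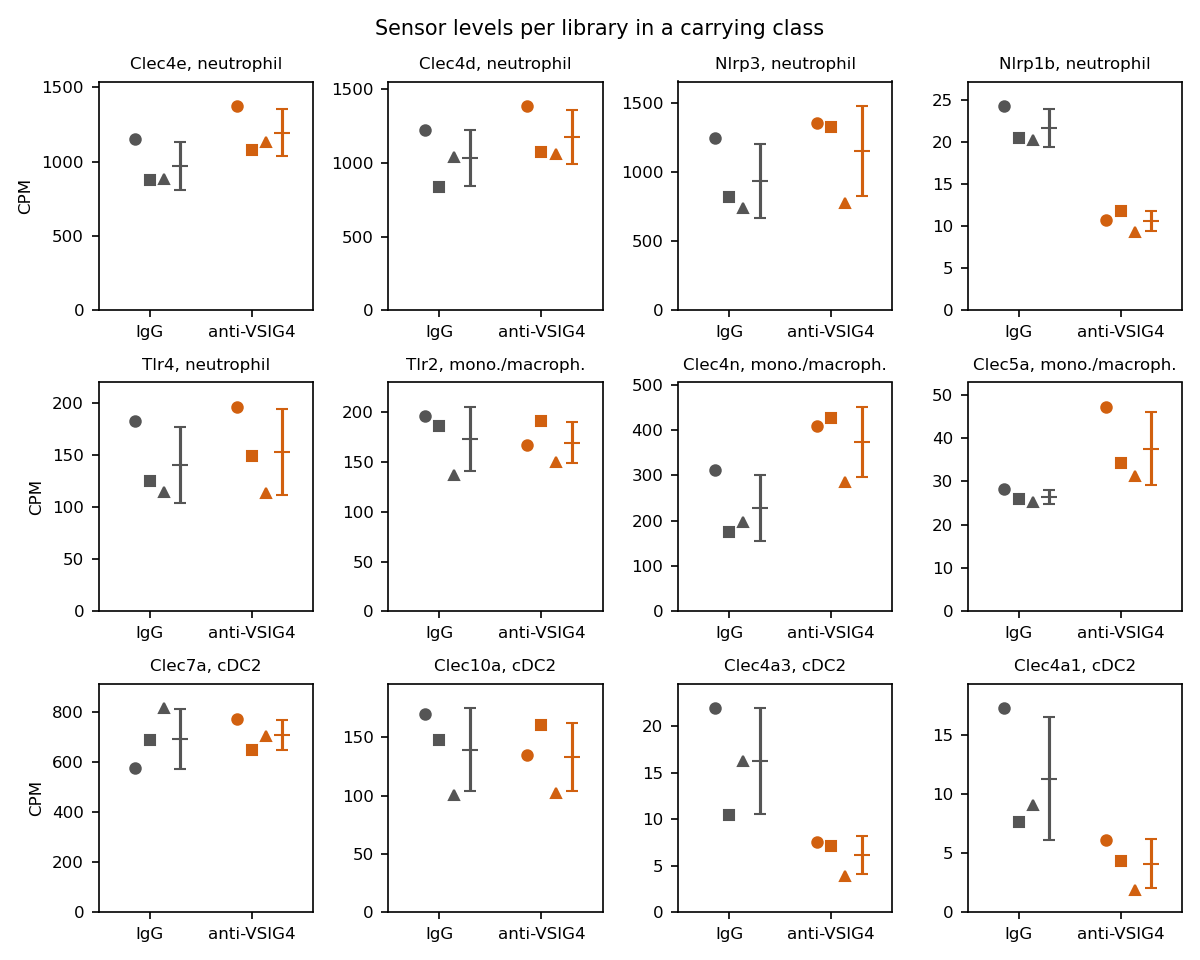
CPM of 12 sensor and class pairs; each point is 1 library (circle, square and triangle for replicates 1, 2 and 3), and the bar gives the mean and SD of 3 libraries, with each vertical axis starting at 0. Groups are apart for Nlrp1b in neutrophils, Clec5a in monocyte/macrophages and Clec4a3 and Clec4a1 in cDC2, and overlap in the other 8 panels.

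In monocyte/macrophages, where VSIG4 itself is known, 35 sensors were tested and 0 passed in edgeR, where 0 of all 13058 genes passed (0.0%). DESeq2 called 25 genes (0.191%) and 0 sensors, and 2 sensors had an unadjusted edgeR p under 0.05, against 4.03% of genes. Their median log2 change was 0.021, with 19 higher and 16 lower. Clec4n measured 312, 176 and 198 CPM in IgG 1, 2 and 3 and 408, 427 and 285 CPM in anti-VSIG4 1, 2 and 3, so IgG 1 reached into the treated range. Its log2 change was 0.69 ± 0.211 (edgeR adjusted p = 0.998). IgG 1, anti-VSIG4 1 and anti-VSIG4 2, the libraries with few nucleus-like cells, had higher Clec4n values than the other libraries. Clec5a measured 28.3, 25.9 and 25.2 CPM in IgG 1, 2 and 3 and 47.1, 34.3 and 31.2 CPM in anti-VSIG4 1, 2 and 3, the 1 sensor of 35 with groups apart (7.77% of all genes), with a log2 change of 0.48 ± 0.168 (edgeR adjusted p = 0.998). Clec10a (-0.68 ± 0.361), Clec4b1 (-1.01 ± 0.578) and Nlrp3 (0.33 ± 0.215) followed with overlapping groups and an edgeR adjusted p of 0.998 each. The summed level of 8 neutrophil markers in this class was 585 to 2323 CPM in the IgG libraries and 1364 to 4474 CPM in the anti-VSIG4 libraries, and its part in the Clec4n and Clec5a values was not tested. In the 3 libraries with few nucleus-like cells alone, Clec10a and Clec4b1 passed with lower values, and in the other 3 alone Clec4n passed with higher and Nlrp4e with lower values; each of these fits has 1 library in an arm, assumed to vary like the others.

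In cDC2, genes of the Clec4a group were lower in treated tumours without passing the test. Of 24 sensors, 0 passed in edgeR and 0 in DESeq2, where 0 of all 8281 genes passed in edgeR (0.0%), and 5 had an unadjusted edgeR p under 0.05, against 4.06% of genes. Clec4a3 measured 21.9, 10.5 and 16.3 CPM in IgG 1, 2 and 3 and 7.61, 7.07 and 3.85 CPM in anti-VSIG4 1, 2 and 3, with a log2 change of -1.41 ± 0.394 (edgeR adjusted p = 0.995). Clec4a1 measured 17.3, 7.62 and 9.05 CPM in IgG 1, 2 and 3 and 6.08, 4.35 and 1.93 CPM in anti-VSIG4 1, 2 and 3, with a change of -1.49 ± 0.484, and Clec4a2 measured 21.9, 26.7 and 29.9 CPM in IgG 1, 2 and 3 and 20.2, 16.3 and 12.3 CPM in anti-VSIG4 1, 2 and 3, with a change of -0.66 ± 0.291. In these 3 genes every treated library lay below every IgG library. Clec4b1 was lower too (-1.47 ± 0.522), but anti-VSIG4 3 at 8.09 CPM exceeded IgG 3 at 6.33 CPM, and Clec5a was higher (0.71 ± 0.333) with overlapping groups. In all, 5 of 24 sensors were lower with groups apart (these 3, Nlrp1b and Tlr1) and 0 higher, where 5.41% of cDC2 genes were lower with groups apart. Here and in fibroblasts the share of genes is for lower values alone, a direction chosen with the values known. These 4 Clec4 genes lie in 1 gene cluster, and their counts in cDC2 are small, from 77 UMIs of Clec4a1 to 214 of Clec4a2 over 6 libraries. The summed level of 12 monocyte/macrophage markers in cDC2 was 2445 to 3875 CPM in the IgG libraries and 2646 to 4401 CPM in the anti-VSIG4 libraries, overlapping between groups.

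**Figure D5:**
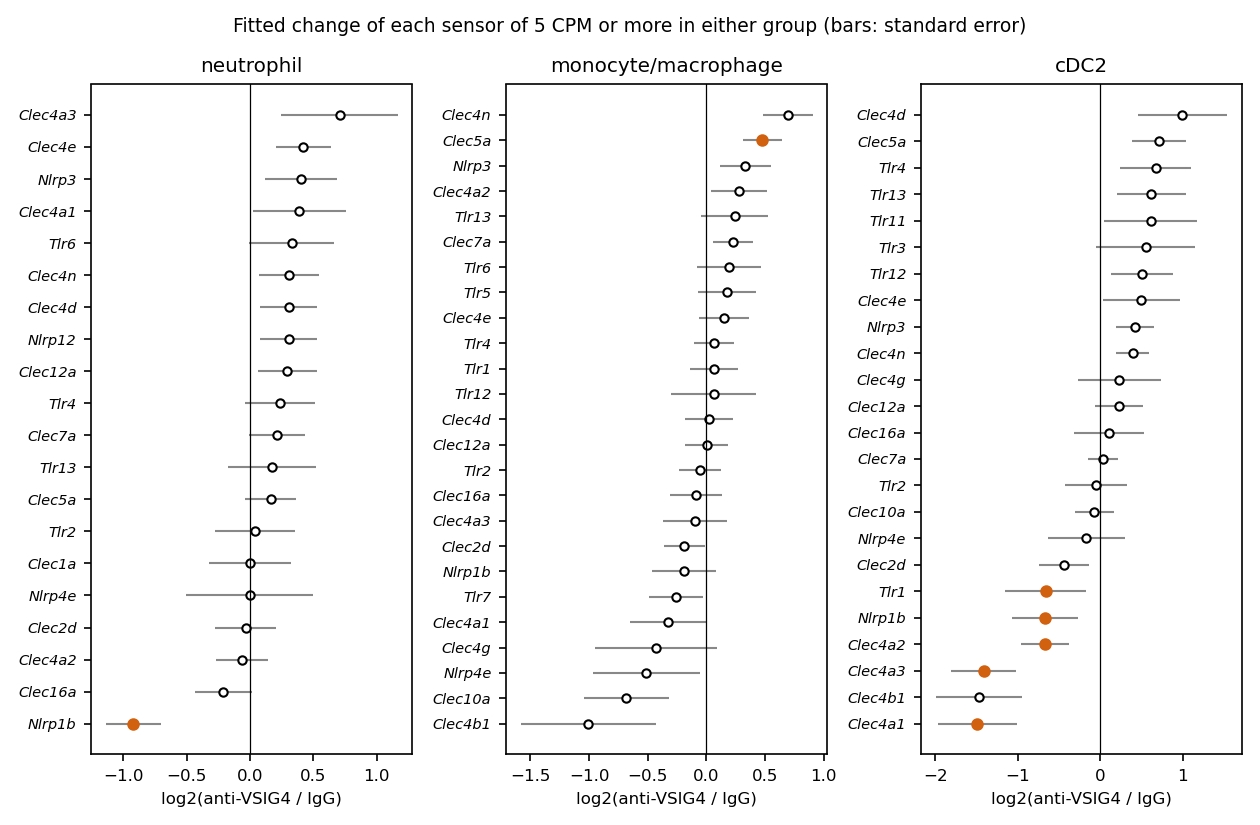
Fitted log2 change (anti-VSIG4 over IgG, horizontal, with standard error) of each tested sensor of 5 CPM or more in either group, in neutrophils, monocyte/macrophages and cDC2; filled points are sensors whose 3 treated libraries lie all above or all below the 3 IgG libraries. Filled points are Nlrp1b in neutrophils, Clec5a in monocyte/macrophages and 5 sensors in cDC2, all 5 to the left of 0; none of the points passed an adjusted p of 0.05.

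In migratory DC, 6 sensors were tested and 0 passed in edgeR (0.0% of all 5034 genes) or DESeq2 (0.0596% of genes). Of the 6, 1 had an unadjusted edgeR p under 0.05 (9.61% of genes) and 0 had groups apart (14.9% of genes). The smallest p was that of Clec4n, at 73.3, 20.9 and 22.2 CPM in IgG 1, 2 and 3 and 116, 71.5 and 73.2 CPM in anti-VSIG4 1, 2 and 3, a log2 change of 1.18 ± 0.466 (edgeR adjusted p = 0.464), where IgG 1 lay within the treated range. Nlrp3 (0.67 ± 0.424), Clec2d (-0.53 ± 0.393), Clec4e (0.61 ± 0.467) and Clec7a (0.24 ± 0.320) followed, the last 2 with a sign that turned under other settings. Without IgG 1, Clec4n passed with higher and Clec16a with lower values, in a fit where 240 genes passed, against 0 with all 6 libraries. Summed neutrophil markers in this class were 1065 to 3307 CPM in the IgG libraries and 934 to 5324 CPM in the anti-VSIG4 libraries, and monocyte/macrophage markers 543 to 2634 CPM in the IgG libraries and 1590.3 to 2263 CPM in the anti-VSIG4 libraries, both overlapping.

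In NK, T, endothelial and tumour/epithelial cells most sensors were fitted higher with anti-VSIG4, and 0 passed the test. All 7 tested sensors in NK cells, 14 of 19 in T cells, 7 of 10 in endothelial cells and 17 of 21 in tumour/epithelial cells were fitted higher, with medians of 1.02, 0.57, 0.95 and 0.81 beside medians of -0.002, 0.00063, -0.017 and -0.012 over all genes. The number of sensors that passed was 0 in edgeR in each of the 4 (genes called: 0.0%, 0.0%, 0.0151% and 0.0%) and 0 in DESeq2 (genes called: 0.0832%, 0.0553%, 0.0605% and 0.0333%). Of the sensors, 2, 3, 6 and 3 had an unadjusted p under 0.05 (5.31%, 3.74%, 4.84% and 3.97% of genes). In endothelial cells Nlrp3 measured 70.7, 33.1 and 18.9 CPM in IgG 1, 2 and 3 and 200.3, 99.0 and 83.8 CPM in anti-VSIG4 1, 2 and 3, with groups apart and a log2 change of 1.59 ± 0.449 (edgeR adjusted p = 0.717). Clec4d (1.33 ± 0.408), Clec4e (1.39 ± 0.429), Clec4n (1.88 ± 0.597) and Tlr2 (1.16 ± 0.525) followed. The summed neutrophil markers in endothelial cells were 298 to 1212 CPM in the IgG libraries and 1528 to 4390.0 CPM in the anti-VSIG4 libraries, with no overlap, and the monocyte/macrophage markers were 430.4 to 1113 CPM in the IgG libraries and 2259 to 4046 CPM in the anti-VSIG4 libraries, with no overlap either. Their part in the sensor values was not tested.

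In NK cells Clec7a measured 46.2, 30.5 and 31.9 CPM in IgG 1, 2 and 3 and 107, 49.7 and 68.6 CPM in anti-VSIG4 1, 2 and 3, with groups apart (1.09 ± 0.306, edgeR adjusted p = 0.749), and Nlrp3 had a fitted difference of 1.21 ± 0.349, Clec4d of 1.02 ± 0.476, Clec4e of 1.34 ± 0.633 and Clec4n of 0.64 ± 0.363 on the log2 scale, none of them passing. Without anti-VSIG4 3, Nlrp3 and Clec4d passed in NK cells. Over all settings the number of genes called in NK cells ranged from 0 to 30. Neutrophil markers in NK cells summed to 733 to 2056 CPM in the IgG libraries and 1299 to 6458 CPM in the anti-VSIG4 libraries. Of the 12 monocyte/macrophage markers 10 had a UMI in every NK library, and they summed to 658 to 1293 CPM in the IgG libraries and 1642 to 2398 CPM in the anti-VSIG4 libraries, with no overlap. Their part in the NK values was not tested. In T cells the smallest p values were those of Clec4a2 (1.56 ± 0.441), Clec12a (1.57 ± 0.460), Clec5a (1.36 ± 0.505), Clec7a (0.56 ± 0.273) and Clec4n (1.07 ± 0.576), with an edgeR adjusted p of 0.999 for the first. In tumour/epithelial cells Tlr3 was lower, at 5.93, 5.23 and 5.20 CPM in IgG 1, 2 and 3 and 3.13, 3.92 and 2.19 CPM in anti-VSIG4 1, 2 and 3, with groups apart and a log2 change of -0.79 ± 0.322 (edgeR adjusted p = 0.999), while Clec7a (1.10 ± 0.475), Clec4d (1.36 ± 0.588), Nlrp3 (1.26 ± 0.595) and Tlr4 (0.53 ± 0.272) had positive differences. In T cells the monocyte/macrophage markers, all 12 with a UMI in every library, summed to 846 to 1558 CPM in the IgG libraries and 1898 to 2667 CPM in the anti-VSIG4 libraries, with no overlap, and the neutrophil markers to 612 to 2992 CPM in the IgG libraries and 1823 to 4272 CPM in the anti-VSIG4 libraries. In tumour/epithelial cells the neutrophil markers summed to 478 to 1706 CPM in the IgG libraries and 1203 to 3617 CPM in the anti-VSIG4 libraries and the monocyte/macrophage markers to 507 to 1758 CPM in the IgG libraries and 1408 to 2021 CPM in the anti-VSIG4 libraries, both overlapping. The part of these markers in the sensor values was not tested. Groups were apart for 1 of 7, 3 of 19, 2 of 10 and 4 of 21 sensors in NK, T, endothelial and tumour/epithelial cells, against 11.0%, 7.71%, 9.64% and 7.54% of genes.

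In fibroblasts, 11 sensors were tested and 0 passed in edgeR (genes called 0.0%) or DESeq2 (genes called 0.333%), and 1 had an unadjusted p under 0.05 (6.16% of genes). That was Nlrp4e, whose counts carry the keratin 8 uncertainty above, at 20.7, 45.0 and 53.2 CPM in IgG 1, 2 and 3 and 13.4, 17.0 and 17.5 CPM in anti-VSIG4 1, 2 and 3 (log2 change -1.33 ± 0.360, edgeR adjusted p = 0.495), with groups apart where 5.09% of genes were lower with groups apart. Markers of tumour/epithelial cells in fibroblasts summed to 309 to 1431 CPM in the IgG libraries and 225 to 293 CPM in the anti-VSIG4 libraries, and their part was not tested. Clec7a (0.52 ± 0.331), Tlr4 (0.75 ± 0.503), Tlr2 (0.44 ± 0.363) and Clec4n (0.76 ± 0.668) followed. Monocyte/macrophage markers in fibroblasts, 11 of 12 with a UMI in every library, summed to 1035 to 1469 CPM in the IgG libraries and 1627 to 2272 CPM in the anti-VSIG4 libraries, with no overlap, and their part in these 4 values was not tested. In plasma cells 6 sensors were tested, 0 passed in edgeR (genes called 0.0%) or DESeq2 (0.168%), 0 had an unadjusted p under 0.05 (8.05% of genes) and 0 had groups apart (18.9% of genes); the smallest p was that of Clec7a (0.43 ± 0.439).

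Summed over all kept cells, where fewer cells of a type and less RNA per cell cannot be told apart, 43 sensors were tested and 0 passed in edgeR (genes called 0.0%) or DESeq2 (genes called 0.106%), with 1 unadjusted p under 0.05 (7.68% of genes). This was Nlrp6, at 0.414, 1.35 and 1.48 CPM in IgG 1, 2 and 3 and 0.239, 0.0703 and 0.278 CPM in anti-VSIG4 1, 2 and 3 (log2 change -2.14 ± 0.617, edgeR adjusted p = 0.6), which was under the floor in every class and was named after its values were seen. Its groups were apart. Among sensors of 5 CPM or more, Clec7a (0.72 ± 0.330), Clec4n (0.95 ± 0.451), Nlrp1b (-0.46 ± 0.247), Nlrp4e (-0.56 ± 0.302) and Clec5a (0.70 ± 0.378) had the smallest p, at an edgeR adjusted p of 0.6 each. Of the 43 sensors, 31 were higher and 12 lower, with a median of 0.43 beside -0.032; 1 was higher and 3 were lower with groups apart, against 2.09% and 12.5% of genes. Over all kept cells neutrophil markers summed to 2955 to 7818 CPM in the IgG libraries and 4376 to 13521 CPM in the anti-VSIG4 libraries. The 7 tumour/epithelial markers summed to 1474, 4169 and 5504 CPM in IgG 1, 2 and 3 and 1405, 1619 and 1394 CPM in anti-VSIG4 1, 2 and 3. They were high in IgG 2 and IgG 3, the 2 libraries with the highest Nlrp6, and their part in the Nlrp6 and Nlrp4e values was not tested.

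Whether the difference itself differed between neutrophils and monocyte/macrophages was tested with class by treatment terms and the library as a block. Of 36 sensors 0 passed, of 13273 genes 1 did (0.00753%), and 5 sensors had an unadjusted edgeR p under 0.05, against 7.12% of genes. Clec10a had the smallest p, with a difference (monocyte/macrophage minus neutrophil log2 change) of -1.49 ± 0.472 (edgeR adjusted p = 0.491). Nlrp1b followed with 0.80 ± 0.289 (edgeR adjusted p = 0.555). A difference of the Nlrp1b values between the 2 classes was therefore not shown. Without IgG 1, Clec10a passed, in a fit where 227 genes passed, against 1 with all 6 libraries. DESeq2 was not run for this term.

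The fixed lists around the sensors had 0 members called by edgeR in any of the 10 classes or in all kept cells. In neutrophils, 34 of 34 genes of Toll-like receptor signalling were tested (median log2 change 0.13), 21 of 24 inflammasome and NOD-like genes (0.17), 16 of 16 genes of C-type lectin signalling (0.061), 12 of 21 lectins with other names (0.23) and 15 of 18 cytokines and other outputs (0.37), beside -0.016 over all genes. In monocyte/macrophages the medians were -0.037, -0.077, -0.0091, -0.14 and -0.00045, beside 0.0014. Unadjusted edgeR p was under 0.05 for 2, 2, 0, 1 and 2 members in neutrophils, all higher, and for 1, 3, 0, 1 and 2 members in monocyte/macrophages.

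Pycard, the adaptor through which NLRP3 and NLRP1 recruit caspase-1, had the smallest p of the inflammasome list in neutrophils, at 51.4, 38.9 and 37.6 CPM in IgG 1, 2 and 3 and 104, 98.3 and 68.7 CPM in anti-VSIG4 1, 2 and 3. Its groups were apart, as were those of the monocyte/macrophage markers in neutrophils given above, whose part was not tested. It had a log2 difference of 1.20 ± 0.231 and an edgeR adjusted p of 0.712. DESeq2 gave an adjusted p of 0.0244, and over 16 alternatives it ranged from 0.000498 to 0.999 with 5 past the threshold. Il23a, a subunit of interleukin-23, had a difference of 1.00 ± 0.180 (edgeR adjusted p = 0.712; DESeq2 0.00493, alternatives 0.00493 to 0.999). In monocyte/macrophages Thbd, thrombomodulin, which carries a lectin-like domain, measured 42.1, 47.4 and 41.9 CPM in IgG 1, 2 and 3 and 83.8, 78.1 and 81.6 CPM in anti-VSIG4 1, 2 and 3, with a difference of 0.87 ± 0.162 (edgeR adjusted p = 0.416; DESeq2 0.00524, alternatives 0.000289 to 1). The chemokine gene Cxcl3 had 1.36 ± 0.331 there (edgeR adjusted p = 0.998; DESeq2 0.0133, alternatives 0.00409 to 1). Irf7, an interferon regulatory factor (-0.52 ± 0.200), and Ticam2, a TLR4 adaptor (-0.58 ± 0.275), had the smallest p of the Toll-like receptor list in monocyte/macrophages, and Naip1 (-1.93 ± 0.586) and the class II transactivator Ciita (-0.50 ± 0.203) of the inflammasome and NOD-like list. In neutrophils they were the NF-kB inhibitors Nfkbia (0.54 ± 0.223) and Tnfaip3 (0.38 ± 0.169), and beside Pycard the sensor gene Nlrc4 (0.72 ± 0.307). None of these passed in edgeR.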

How the data were processed

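Single-cell libraries of 6 tumours were used. The authors deposited UMI counts per gene and barcode, written by PISA 1.0 per the file headers, and STAR and Seurat 4.11 were used too per the submitters' processing notes. The labels and headers name no genome build or annotation, which is thus not given in the sources used here. Every deposited barcode held at least 1000 UMIs. Cells needed at least 500 UMIs, 300 genes and at most 20% mitochondrial UMIs. Scrublet, run in scanpy 1.11.5 (Python 3.11.15), marked 0 cells and was taken not to have worked, so no doublets were removed. Leiden clusters (leidenalg 0.10.2, resolution 1.0, 3000 variable genes, 40 components, 20 neighbours) were built without the 62 sensors and named from fixed markers, so class names are rebuilt. Clusters with over 15% of UMIs in genes spanning over 100 kb were called nucleus-like. Monocyte/macrophages were integrated across libraries and clustered again with Seurat 5.3.0. Counts were summed per library and class and tested in R 4.3.3 with edgeR 4.0.16 (TMM, filterByExpr, robust quasi-likelihood, Benjamini-Hochberg over all genes of a class, 0.05); DESeq2 1.42.0 was an alternative. The tests were checked on simulated counts.

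The members and lists were chosen with earlier results of these data known. Named are measurable sensors (at least 5 CPM in a class), per class the 5 sensors with the smallest p among those of at least 5 CPM in either group, and up to 2 members per pathway list in neutrophils and monocyte/macrophages. Alternatives covered tool, scaling, filters, replicates, library kind, doublet scores, clustering and thinning. The transcripts of the GENCODE annotation served to find near-identical copies, and RefSeq tables (GRCm38.p6) gave gene order and promoters, with no coordinate of the deposited files used.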

Additional observations from a re-analysis of the deposited data

How the results depend on the processing

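The counts of called sensors were 0 in edgeR in each class, in all kept cells and in the interaction, and 0 with DESeq2, with another scaling of edgeR and after removal of the highest doublet scores. Without a filter on low counts 2 sensors passed in NK cells, 1 in T cells (Clec5a), 3 in endothelial cells (Nlrp3, Clec4n and Clec4e) and 1 in fibroblasts (Nlrp4e). Of all genes, 74 passed in T cells and 69 in endothelial cells in that setting, against 0 and 1 with the filter. In the 3 libraries with few nucleus-like cells sensors passed in T cells, cDC2 and monocyte/macrophages. In the other 3 libraries they passed in monocyte/macrophages, neutrophils and tumour/epithelial cells. Each of these fits has 1 library in an arm. Leaving out 1 library at a time gave 0 to 2 in NK cells (2 without anti-VSIG4 3), 0 to 2 in migratory DC (2 without IgG 1), 0 to 1 in the interaction and 9 to 12 class-restricted sensors. In the fits without IgG 1, 240 of all genes passed in migratory DC and 227 in the interaction. The number restricted was 19 at a fold of 2, 5 at a fold of 8 and a partly different 5 by thinned shares. Those by thinned shares were Clec11a, Clec4a3, Nlrp12, Nlrp4e and Tlr7. Clec4e, Clec5a, Tlr6, Clec4a1, Clec14a and Clec1a were thus restricted by CPM but not by thinned shares. The leading class held for 25 (Leiden resolution 0.5, where no cluster was named cDC2) to 31 of the 31 measurable sensors. Replicate numbers did not pair the libraries throughout. Samples numbered 2 deviated in opposite directions in every class (correlation -0.19 in neutrophils and -0.023 in fibroblasts). Samples numbered 1 and 3 deviated in the same direction (correlation 0.35 and 0.30 in neutrophils). The best correlation in neutrophils with an anti-VSIG4 library of another number was 0.29 for IgG 1 and -0.15 for IgG 3. In monocyte/macrophages IgG 1 correlated at 0.26 with the same number and at 0.29 with another. The likeness of the samples numbered 1 was thus not particular to the shared number. With the replicate block 2 sensors passed in NK cells, where 30 of all genes passed, and 0 in the other classes. In migratory DC the log2 difference of Clec4e was -0.26 in libraries with few nucleus-like cells, and that of Clec7a was -0.017 with library kind as a covariate and -0.019 in libraries with many. Over all genes the number called moved further, from 0 to 341 in monocyte/macrophages and from 0 to 158 in neutrophils, both highest in the 3 libraries with many nucleus-like cells. The causes were not tested. Depth limits the sensors under 5 CPM most, and simulated 2-fold changes were found for 24.4% of genes in neutrophils and 26.7% in monocyte/macrophages. The simulations changed many genes at once and called 4 and 14 unchanged genes in these classes, so the shares may be too high for the real fits.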

Other observations

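The nucleus-like cells, which are in no comparison above, also held sensor counts. Their cluster whose markers matched monocyte/macrophages best (2027 cells) had 663 ± 208 CPM of Nlrp3, 518 ± 208 CPM of Clec7a, 358 ± 100.2 CPM of Clec4e and 156 ± 90.7 CPM of Tlr2 (mean ± SD over 6 libraries). Of these, Clec7a and Tlr2 lay near their levels in the named monocyte/macrophages, and Nlrp3 and Clec4e lay above the means there.

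An unnamed cluster of 1752 cells that matched neutrophils best, but whose leading genes were not its markers, held 1903 ± 322 CPM of Clec4e and 183 ± 44.8 CPM of Clec5a. Another of 778 cells, whose second match was neutrophils, held 108 ± 45.6 CPM of Tlr6, the highest mean of this gene in any neutrophil-type cluster, and 7.58 ± 7.13 CPM of Nlrp12.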
